A study of Mus musculus with 13 samples.

Results

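Atf4 and 9 further genes of the amino acid stress response (Ddit3, Trib3, Chac1, Sesn2, Asns, Psat1, Mthfd2, Aldh1l2 and Slc7a11) were followed library by library in RNA from MA-10, a tumour cell line derived from mouse Leydig cells. The 10 genes were chosen from the deposited values themselves, because earlier work on these libraries had several of them high in the libraries KHT 1, KHT 2 and IPT 1. Their order among libraries is therefore given as a description with no test. They are 10 of 27071 features in the table, and all 10 were among the 10714 features with enough counts to be tested.

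The study incubated extracted MA-10 RNA with a purified protein bait and recovered the bait on beads with an antibody to maltose-binding protein (MBP). In the 4 KHT libraries the bait was the KH and Tudor domains of dAKAP1, an anchoring protein of the mitochondrial surface that carries RNA-binding domains. The 5 NEG libraries are negative controls with empty anti-MBP beads, MBP alone or a bait named KHT(GDDG), and the sources used here do not tell which NEG library had which control. The 4 IPT libraries are the untreated input RNA after depletion of ribosomal RNA. All libraries come from the same cell line, grown in one medium with no stress treatment named in the labels, and the bait met RNA in solution, not in cells. The description field of the KHT libraries speaks of negative controls, whereas their title and treatment name KHT, which is the grouping used here. The molecule is labelled polyA RNA, although the kit named is a total RNA kit with ribosomal depletion.

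Atf4 is a basic leucine zipper transcription factor whose mRNA is translated better when a stress kinase has phosphorylated the initiation factor eIF2. Shortage of amino acids, acting through the kinase Gcn2, and protein misfolding in the endoplasmic reticulum, acting through Perk, both feed into this switch. Atf4 then pairs with C/EBP family proteins on DNA and raises genes for amino acid synthesis, uptake and tRNA charging, together with feedback genes such as Ddit3, Trib3 and Chac1.

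Several libraries stood apart before any gene was considered. NEG 2 held 0 counts and was left out, so 12 libraries were fitted. Total counts were 1955446 to 3689792 in KHT, 2487679 to 3085423 in IPT and 1162178 to 1618998 in the other NEG libraries, but 9 features took 96.0% to 98.1% of the NEG counts. Outside those features NEG held 31318 to 49062 counts, against at least 929348 in KHT and at least 1542713 in IPT, so a level in NEG rests on few counts. KHT 1 and IPT 1 were the closest pair of libraries over all genes (chi-square per degree of freedom 5.55, the next pair 11.02). Sampling noise alone gives about 1 where counts are independent, and more if both mates of a read pair were counted. KHT 1 and IPT 1 were kept as separate libraries. Nothing in the labels says that the libraries came from separate cultures, and p-values therefore measure only the spread between these libraries. In bulk RNA, more cells with a high level and more RNA per cell cannot be told apart. Levels are normalised CPM, the counts of a gene scaled to a common library size after adjustment by the trimmed mean of M values. They compare 1 gene between libraries, not different genes, since no lengths were used.

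The promoters of 9 of the 10 genes were found in a RefSeq promoter table (GRCm38.p6), each running from 250 bases before to 50 bases after the start site. They were searched on both strands for TGATGNAA, the core of the C/EBP-ATF response element to which Atf4 binds with a C/EBP partner. It occurred in promoters of 4 of the 9 genes (44.4%) and, counted per gene in the same way, in 4.51% of the 27025 genes of the table (3.97% of its 32851 promoters). Of the gene lists described below, 5 of 12 cytosolic aminoacyl tRNA synthetases (41.7%) and 3 of 8 Atf4 partners and related factors (37.5%) had it. So did 3 of 14 other reported Atf4 targets (21.4%), 1 of 9 amino acid transporters (11.1%) and 0 of 10 serine, glycine and one-carbon enzymes. The stretches of Chac1 (plus strand, chr2:119351029-119351076), Slc7a11 (minus strand, chr3:50443633-50443699) and Asns (minus strand, chr6:7693210-7693252) are shown because they hold the matches that lie before the start site. Capitals mark each match, in either orientation, and each sequence reads along the gene's own strand.
Chac1: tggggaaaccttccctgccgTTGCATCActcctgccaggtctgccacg
Slc7a11: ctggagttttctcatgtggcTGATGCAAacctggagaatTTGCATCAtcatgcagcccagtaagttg
Asns: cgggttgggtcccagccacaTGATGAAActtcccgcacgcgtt

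In Chac1 the match ran from base -193 to -186, counted from the start site. Slc7a11 held 2 matches in opposite orientations, from -66 to -59 and from -47 to -40. The Slc7a11 promoter searched, 50443564 to 50443863 on chromosome 3, lay inside the gene's RefSeq span of 50364936 to 50499087. The start site used for Slc7a11 was therefore not the outer end of that span. In Asns the match ran from -23 to -16. The fourth promoter was that of Trib3, whose match, from +15 to +22, lay after the start site. Of the other elements searched, TGACNNNGC is the core of the antioxidant element bound by Nrf2. It occurred in 2 of the 9 genes (Sesn2 and Asns) and in 14% of all genes of the table (12.4% of its promoters). The cyclic AMP element TGACGTCA occurred in 0 of 9 genes and 2.03% of all genes (1.79% of promoters). The endoplasmic reticulum stress element, ERSE, occurred in 0 of 9 genes and 0.137% of all genes (0.119% of promoters). These matches are a description of letters and not of binding.

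The transcription factors of the response came first. Atf4 (chromosome 15, 80255184 to 80257545) stood at 192 and 164 normalised CPM in KHT 1 and KHT 2, and at 95.3 and 110 in KHT 3 and KHT 4. In IPT 1 its level was 182 CPM, against 98.2, 102 and 95.2 in IPT 2, IPT 3 and IPT 4. The lowest of KHT 1, KHT 2 and IPT 1 was 1.49 times the highest of the other 5 KHT and IPT libraries. In NEG 1, NEG 3, NEG 4 and NEG 5 Atf4 read 50.9, 145, 26.8 and 147 CPM, from 12, 24, 4 and 36 counts. The NEG levels overlapped those of KHT and IPT.

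Ddit3 (chromosome 10, 127290793 to 127296291) encodes CHOP, a C/EBP family factor induced by Atf4. Its level was 58.2, 54.3, 9.37 and 13.2 CPM in KHT 1 to KHT 4. In IPT 1 to IPT 4 it was 64.0, 8.17, 10.3 and 10.6 CPM. KHT 1, KHT 2 and IPT 1 lay at least 4.13 times above the other 5, with no overlap. NEG 3 and NEG 5 read 12.1 and 8.17 CPM from 2 counts each, and NEG 1 and NEG 4 were at 0.

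Trib3 (chromosome 2, 152337425 to 152344060) encodes a pseudokinase that feeds back on Atf4 and on the kinase Akt. It stood at 86.5 and 72.4 CPM in KHT 1 and KHT 2 and at 5.99 and 5.22 in KHT 3 and KHT 4. The input libraries gave 77.3 CPM in IPT 1, then 1.55, 5.66 and 2.091. The raw counts behind these values were 659, 317, 53 and 21 in KHT and 726, 11, 38 and 20 in IPT. The 4 NEG libraries held 0 counts of Trib3. The smallest of the 3 high libraries was 12.1 times the largest of the other 5.

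**Figure D1:**
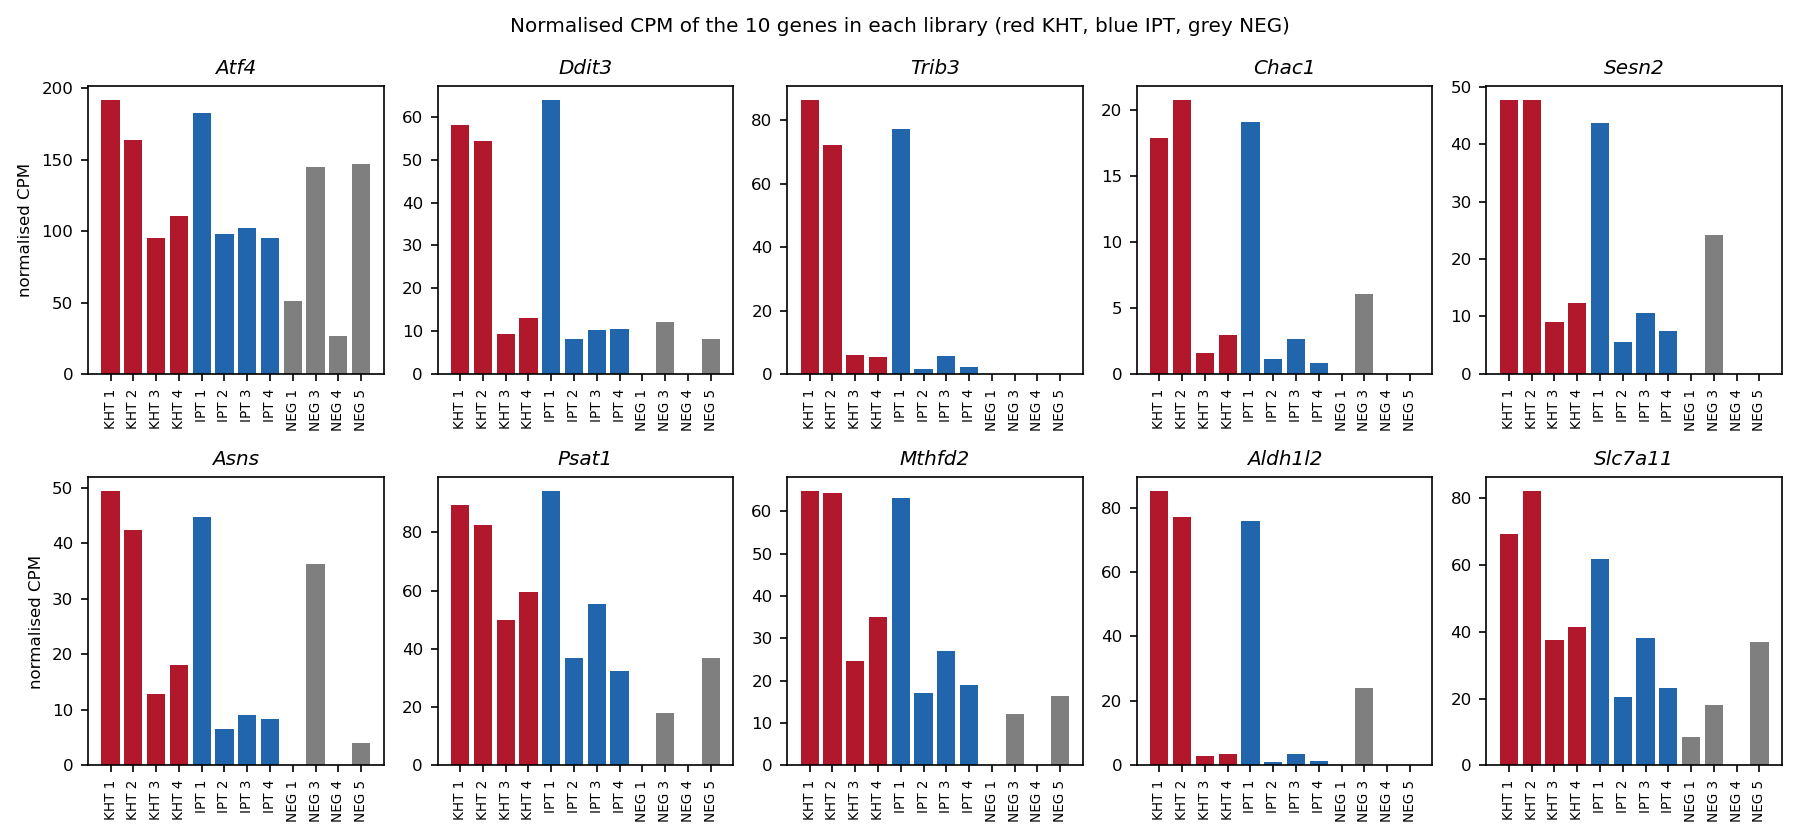
Normalised CPM (y axis, own scale per panel, starting at 0) of each of the 10 genes in each of the 12 libraries (x axis; 1 bar per library, red KHT, blue IPT, grey NEG). In every panel the bars of KHT 1, KHT 2 and IPT 1 stand above those of the other 5 KHT and IPT libraries, by 1.38 times in Psat1 and 21.8 times in Aldh1l2 at the closest point.

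Chac1 and Sesn2 are the feedback and signalling genes of the set. Chac1 (chromosome 2, 119351242 to 119354326), whose product degrades glutathione, read 17.9, 20.8, 1.58 and 2.98 CPM in KHT 1 to KHT 4. In IPT 1 to IPT 4 it read 19.1, 1.13, 2.68 and 0.836 CPM. Chac1 is the least counted of the 10, with 8 to 18 counts in each of the 5 low libraries. The 3 high libraries stood at least 5.99 times above them. Only 1 count, in NEG 3, was found over the 4 NEG libraries.

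Sesn2 (chromosome 4, 132492804 to 132510456) encodes a leucine sensor that restrains mTORC1. It stood at 47.7 CPM in both KHT 1 and KHT 2, at 9.04 in KHT 3 and at 12.4 in KHT 4. In IPT 1 to IPT 4 it was 43.7, 5.50, 10.6 and 7.53 CPM. The high and low libraries were separated by at least 3.52 times. NEG 3 read 24.1 CPM from 4 counts, and NEG 1, NEG 4 and NEG 5 were at 0.

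Of the biosynthetic enzymes, Asns (chromosome 6, 7675165 to 7693209) makes asparagine from aspartate and glutamine. Its level was 49.4, 42.5, 12.9 and 18.1 CPM in KHT 1 to KHT 4, and 44.7, 6.48, 9.08 and 8.36 in IPT 1 to IPT 4. The separation of the high from the low libraries was at least 2.34 times. NEG 3 read 36.2 CPM from 6 counts, a level above those of all 5 low KHT and IPT libraries, and NEG 5 read 4.09 from 1 count.

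Psat1 (chromosome 19, 15905123 to 15925059), a transaminase of serine synthesis, showed the smallest separation of the set. It stood at 89.5, 82.4, 49.9 and 59.6 CPM in KHT 1 to KHT 4. Its input levels were 94.2, 36.8, 55.4 and 32.5 CPM in IPT 1 to IPT 4. The lowest high library was 1.38 times KHT 4, the highest of the others. NEG 3 and NEG 5 read 18.1 and 36.8 CPM from 3 and 9 counts, and NEG 1 and NEG 4 held 0.

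A pair of mitochondrial folate enzymes followed. Mthfd2 (chromosome 6, 83305704 to 83326011) oxidises methylene-tetrahydrofolate, and read 64.7, 64.4, 24.7 and 35.0 CPM in KHT 1 to KHT 4 and 63.2, 17.2, 27.0 and 19.0 in IPT 1 to IPT 4. KHT 1, KHT 2 and IPT 1 differed by only 1.02 times between highest and lowest, the closest of the 10 genes, and lay at least 1.80 times above the rest. NEG 3 and NEG 5 read 12.1 and 16.3 CPM from 2 and 4 counts.

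Aldh1l2 (chromosome 10, 83487447 to 83534146) oxidises formyl-tetrahydrofolate in mitochondria. Its level was 85.1 and 76.9 CPM in KHT 1 and KHT 2, and 2.94 and 3.48 in KHT 3 and KHT 4. IPT 1 held 75.9 CPM, and IPT 2 to IPT 4 held 0.986, 3.43 and 1.36, from 7, 23 and 13 counts. This was the widest separation of the 10 genes, at least 21.8 times. NEG 3 read 24.1 CPM from 4 counts, and the other 3 NEG libraries were at 0.

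The transporter Slc7a11 (chromosome 3, 50364936 to 50499087) imports cystine in exchange for glutamate. It read 69.3, 82.0, 37.6 and 41.2 CPM in KHT 1 to KHT 4, and 61.6, 20.4, 38.0 and 23.2 in IPT 1 to IPT 4. IPT 1 was 1.49 times KHT 4, the highest of the others. In NEG 1, NEG 3, NEG 4 and NEG 5 it read 8.49, 18.1, 0 and 36.8 CPM from 2, 3, 0 and 9 counts.

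Across the set, KHT 1, KHT 2 and IPT 1 each lay above all 5 other KHT and IPT libraries for 10 of 10 genes. The same order held for 14.6% of the 10714 genes tested, and with a gap of at least 2 times for 6 of the 10 and 1.25% of all. The reverse order, with these 3 libraries below the other 5, was met in 13.9% of genes. Since the 10 genes were picked for this order, nothing is read from these shares. The summed level of the 10 genes was 760 and 707 CPM in KHT 1 and KHT 2 and 726 in IPT 1. It ran from 196 to 302 CPM in the other 5. The share of counts in the 9 dominant features did not follow the same order, at 29.3%, 46.4% and 28.9% in KHT 1, KHT 2 and IPT 1 and 26.7% to 52.7% in the rest.

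**Figure D2:**
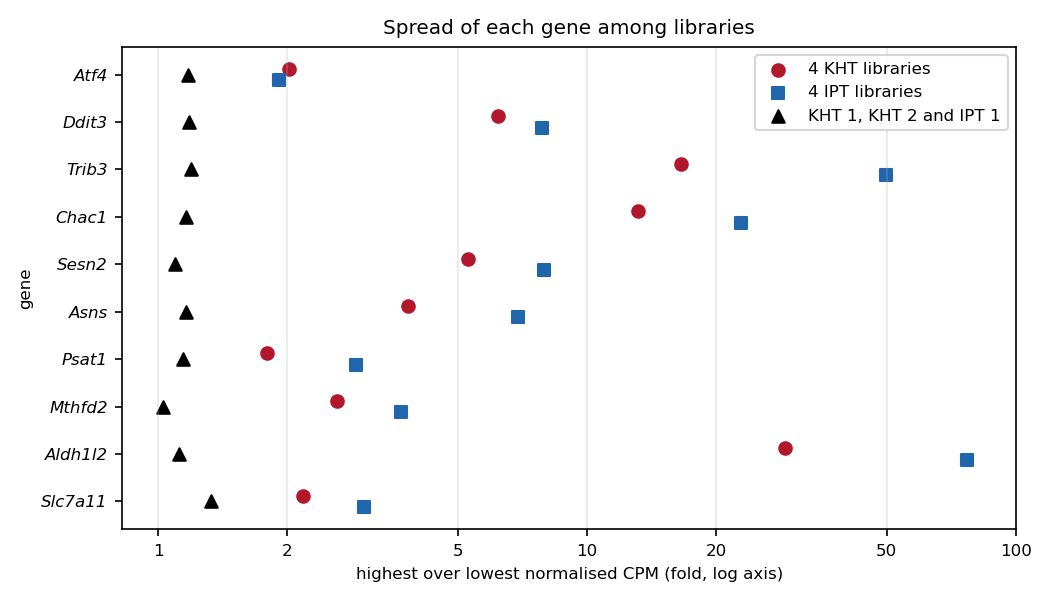
Highest over lowest normalised CPM (x axis, log scale, fold) of each of the 10 genes (y axis) among the 4 KHT libraries (red circles), the 4 IPT libraries (blue squares) and the 3 libraries KHT 1, KHT 2 and IPT 1 (black triangles). Spread within KHT and IPT reached 29.0 and 77.0 times in Aldh1l2, while the 3 high libraries differed by at most 1.33 times, in Slc7a11.

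The genes differed in how far their libraries spread. Atf4 itself varied by 2.01 times among KHT and 1.92 times among IPT libraries, and Psat1 by 1.79 and 2.90 times. Trib3 varied by 16.6 and 49.9 times, Chac1 by 13.1 and 22.8 times and Aldh1l2 by 29.0 and 77.0 times. Ddit3, Sesn2 and Asns lay between, with 3.83 to 6.20 times in KHT and 6.90 to 7.95 times in IPT. In contrast, KHT 1, KHT 2 and IPT 1 differed from each other by 1.02 to 1.33 times, over a bait pull-down and an untreated input alike.

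An order was also present among the 5 lower libraries. IPT 3 was the highest of IPT 2, IPT 3 and IPT 4 in 9 of 10 genes, the exception being Ddit3, where IPT 4 read 10.6 and IPT 3 10.3 CPM. KHT 4 was above KHT 3 in 9 of 10, all but Trib3. KHT 4 was above IPT 2 and above IPT 4 in 10 of 10 and above IPT 3 in 9 of 10, whereas KHT 3 was above IPT 3 in 2 of 10. Among the high libraries, KHT 1 was above IPT 1 in 7 of 10 genes and KHT 2 above IPT 1 in 5 of 10. Over the 8 KHT and IPT libraries, after removal of each group's mean, each gene's log2 CPM correlated with the mean of the other 9 at r = 0.946 (Psat1) to 0.995 (Sesn2). These correlations over 8 libraries that share depth and RNA source are a description only.

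Other genes of the pathway were taken from lists that were drawn up with earlier results of these data known, so their counts are no independent support. The order with KHT 1, KHT 2 and IPT 1 above the other 5 was found in 8 of 10 tested amino acid transporters and 13 of 20 cytosolic aminoacyl tRNA synthetases, against 14.6% of all genes. Slc7a5, the light chain of the leucine carrier, read 152, 163, 75.7 and 65.1 CPM in KHT 1 to KHT 4 and 172, 50.3, 68.7 and 53.4 in IPT 1 to IPT 4. Eprs, which charges the tRNAs for glutamate and proline, read 350, 342, 109 and 117 in KHT and 337, 101, 132 and 100.06 in IPT. In both genes the same 3 libraries were high. Each had the widest gap of the 3 genes of its list with the highest mean CPM. The lowest of the 3 libraries over the highest of the other 5 was 2.01 in Slc7a5, 1.88 in Slc7a1 and 1.17 in Slc38a2. It was 2.54 in Eprs, 1.99 in Aars and 1.63 in Gars. Summed over the synthetases, the 3 high libraries read 1689 to 1768 CPM and the others 850 to 942.

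Enzymes and partners of the pathway were more divided. The order was found in 6 of 10 other amino acid and sulfur enzymes, in 4 of 11 serine, glycine and one-carbon enzymes, and in 5 of 10 Atf4 partners and related factors. Over all genes tested it was found in 14.6%. Aldh18a1, which opens proline synthesis, read 94.8, 92.0, 21.1 and 18.6 CPM in KHT 1 to KHT 4 and 90.5, 13.8, 20.7 and 10.4 in IPT 1 to IPT 4. Phgdh, the entry enzyme of serine synthesis, read 224, 196, 132 and 143 in KHT and 213, 107, 137 and 104 in IPT. Nupr1, a stress-induced chromatin protein, read 60.9, 56.6, 13.2 and 20.9 in KHT and 73.5, 16.2, 17.1 and 12.8 in IPT. A list of other reported Atf4 targets had 11 of 15 genes in this order, 9 of them with a gap of at least 2 times (1.25% of all genes). Gadd45a, of this list, and Ppp1r15a, of the list of stress kinases and eIF2 subunits, were named after their values were seen, for their wide gaps. Gadd45a, a growth arrest gene, read 79.7, 78.3, 6.44 and 11.4 CPM in KHT and 76.5, 8.88, 13.9 and 14.6 in IPT. Ppp1r15a, which directs a phosphatase to eIF2, read 52.6, 47.9, 11.4 and 5.46 in KHT and 53.6, 8.03, 8.79 and 10.9 in IPT.

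**Figure D3:**
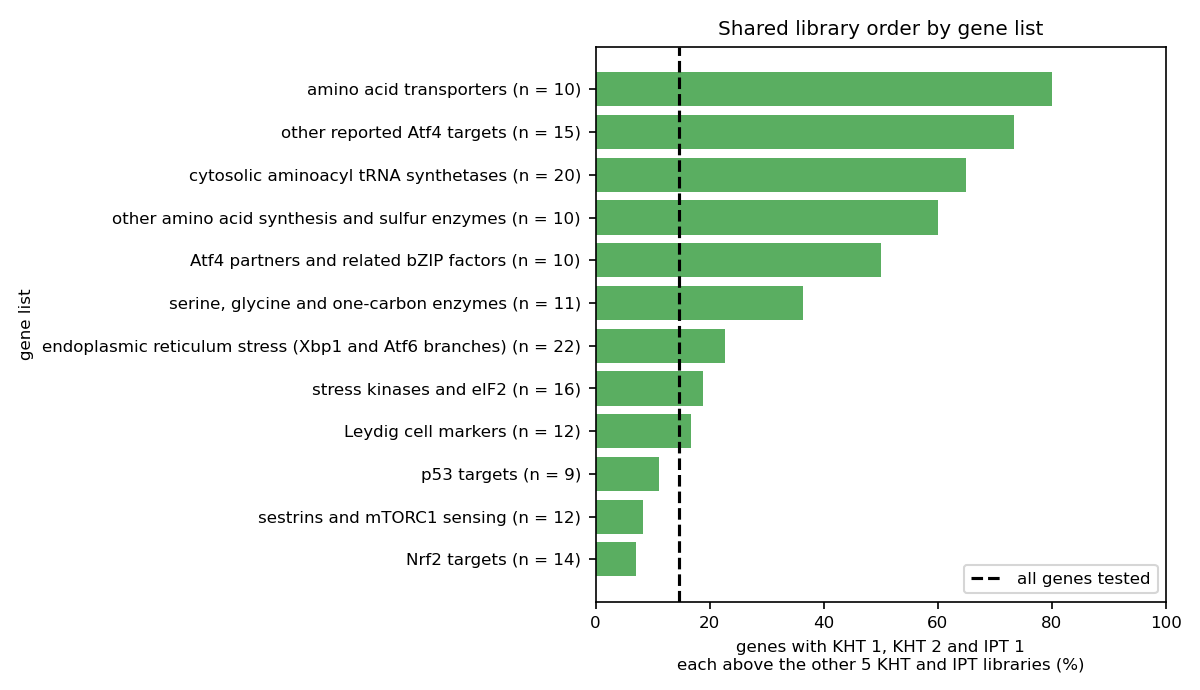
Percentage of tested genes (x axis) of the lists with at least 9 genes tested (y axis, number tested in brackets; the chosen genes themselves are not plotted) in which KHT 1, KHT 2 and IPT 1 were each above the other 5 KHT and IPT libraries. The dashed line is the share among all 10714 genes tested, 14.6%, and among the lists plotted amino acid transporters lie highest at 80% and Nrf2 targets lowest at 7.14%.

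Genes that act upstream of Atf4, or in neighbouring stress pathways, were in this order at shares nearer to the 14.6% of all genes. The reverse order was met in 13.9% of all genes. Among stress kinases and eIF2 subunits it was 3 of 16, and among sestrins and mTORC1 sensing genes 1 of 12. Ppp1r15a was among the 3, and the only 1 with a gap of at least 2 times. Ppp1r15b, the constitutive counterpart of Ppp1r15a, read 69.1, 66.7, 49.6 and 45.2 CPM in KHT and 69.3, 49.6, 49.0 and 40.8 in IPT. Of 22 genes of the Xbp1 and Atf6 branches of the endoplasmic reticulum stress response, 5 were in the order and 10 in its reverse. Hspa5, the chaperone BiP, read 575, 540, 234 and 215 CPM in KHT 1 to KHT 4 and 576, 283, 225 and 340 in IPT 1 to IPT 4. Calr, the chaperone calreticulin, went the other way, at 57.2, 50.2, 98.3 and 89.9 in KHT and 47.4, 103, 99.9 and 108 in IPT. Nrf2 targets, the antioxidant genes, had 1 of 14 in the order and 9 in its reverse, and p53 targets 1 of 9 and 2. Under 3 other scalings of the libraries the order still held for 10 of 10 of the Atf4 set and 8 of 10 transporters, while the count was 0 to 3 for sestrins and mTORC1 sensing genes and 0 to 1 for Nrf2 targets.

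Some marker genes of the cell line also differed between these libraries. All 12 Leydig cell markers were tested, and their summed level was 401, 408 and 402 CPM in KHT 1, KHT 2 and IPT 1 and 572 to 707 CPM in the other 5. KHT 1, KHT 2 and IPT 1 were each below the other 5 libraries for 6 of the 12 markers and each above them for 2, and the other 4 overlapped. Over all genes tested 13.9% were below and 14.6% above. None of the 12 was at 0 in KHT or IPT. Cyp11a1, the first enzyme of steroid synthesis, read 26.0, 28.5, 92.7 and 105 CPM in KHT 1 to KHT 4 and 25.4, 125, 87.0 and 136 in IPT 1 to IPT 4. Nr5a1, the factor that drives the steroidogenic programme, read 169, 184, 192 and 174 in KHT and 173, 213, 163 and 224 in IPT, with the high and low libraries overlapping. The 2 markers in the opposite order, named after their values were seen, were Hsd3b6 and Scarb1. Hsd3b6, a hydroxysteroid dehydrogenase, read 11.4, 11.9, 6.44 and 7.20 in KHT and 9.59, 3.66, 6.85 and 3.66 in IPT. Scarb1, a receptor for high-density lipoprotein, read 24.3, 22.6, 17.4 and 18.1 in KHT and 27.8, 9.72, 18.8 and 13.7 in IPT. Of 9 Sertoli cell markers 5 were tested, with a sum of 45.7, 47.0 and 46.1 CPM in the 3 libraries and 67.2 to 94.0 in the others, most of it Rhox5 and Amhr2. Of the remaining Sertoli markers, Wt1, Cldn11 and Fshr were at 0 in 7 of the 8 KHT and IPT libraries and Amh in 6 of 8, whereas Sox9 (1.41 to 4.79 CPM), Dhh (1.37 to 3.13 CPM) and Gata1 (1.04 to 5.50 CPM) had counts in all 8. Germ cell markers summed to 2.74 to 3.73 CPM in the 3 libraries and 1.49 to 2.48 in the others, with Ddx4 the only one of 8 that was tested. Macrophage, endothelial and peritubular markers, 2 of 9 tested, summed to 14.4 to 16.6 and 13.3 to 28.1 CPM. The part of these differences in the levels of the 10 genes was not tested.

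**Figure D4:**
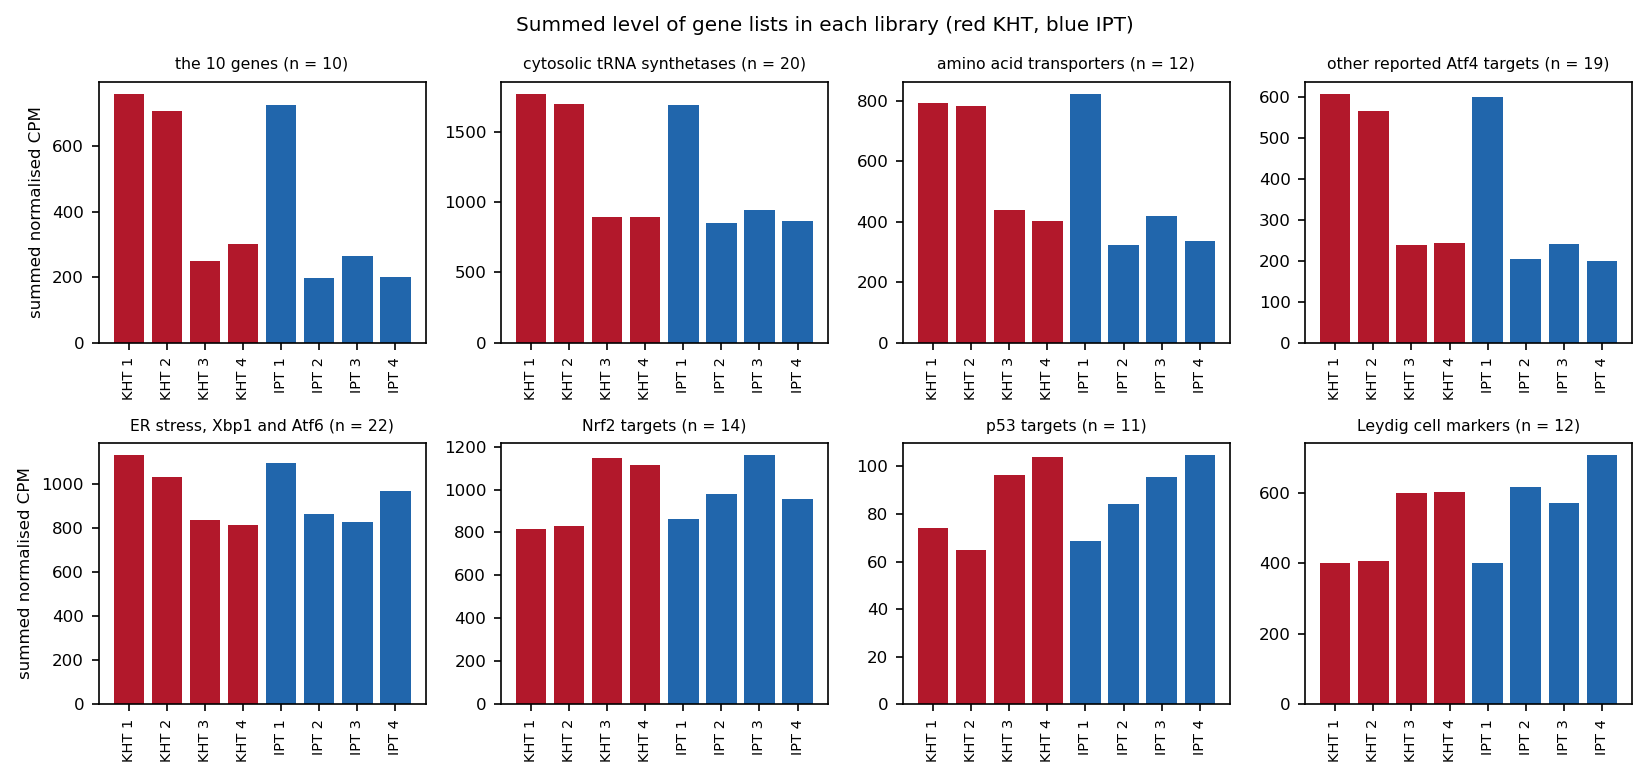
Summed normalised CPM (y axis, starting at 0, own scale per panel) of the 10 genes and of 7 gene lists in each KHT (red) and IPT (blue) library (x axis), with the number of genes in the table in each title. The 10 genes, tRNA synthetases, transporters and other Atf4 targets are high in KHT 1, KHT 2 and IPT 1, and Nrf2 targets, p53 targets and Leydig cell markers are low there. The endoplasmic reticulum stress list is also higher there, at 1132, 1031 and 1099 CPM against 814 to 969 in the other 5. Of these sums Hspa5 alone gives 575, 540 and 576 CPM, and 10 of the 22 genes are in the reverse order, as are 13.9% of all genes tested.

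Among 7273 further genes whose CPM averaged 5 or more, those whose pattern over the 8 KHT and IPT libraries was nearest to the 10 genes were ranked by Pearson's r of log2 CPM around group means. The nearest 12 were Dip2c (r = 0.998), Soat2 (0.996), Eif4ebp1 (0.995), Psph (0.994), Dysf (0.993), Vegfa (0.993), Herpud1 (0.992), Inpp5b (0.991), Rai14 (0.991), Shmt2 (0.990), Slc1a5 (0.990) and G0s2 (0.990). Of these, 7 were already on a pathway list. Shmt2, the mitochondrial serine hydroxymethyltransferase, read 59.9, 57.5, 26.5 and 31.5 CPM in KHT and 63.1, 18.3, 25.9 and 16.8 in IPT. The ranking is not selective, since 463 of the 7273 genes had r above 0.9 and 502 were as strongly negative. For Atf4 alone the nearest were Sqstm1 (0.997), Dnaja3 (0.996), Zbtb18 (0.995) and Rab10 (0.994), and for Ddit3 they were Ybx3 (0.998), Arhgef2 (0.995), Glce (0.994) and Mcfd2 (0.994).

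Whether the dAKAP1 domains recovered these mRNAs beyond their share of the input is the question of KHT with IPT. In edgeR's quasi-likelihood test 0 of 10 genes passed an adjusted p of 0.05 (Benjamini-Hochberg over 10714 genes), where 0.00933% of all genes passed as higher and 0% as lower. The log2 fold changes were all above 0, from 0.23 (SE 0.64) for Atf4 to 1.03 (SE 1.48) for Aldh1l2, with a median of 0.73 beside 0.01 for all genes. Adjusted p was 1.00 for each of the 10, and 0 of 10 had an unadjusted p under 0.05. DESeq2, with 0.0374% of all genes higher and 0.0281% lower, also called 0 of 10, with 0 at an unadjusted p under 0.05. The same counts, 0 and 0, came from limma voom.

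The high libraries are unevenly placed, with 2 in KHT and 1 in IPT, and the fold changes shifted with the libraries used. Without KHT 1, KHT 2 and IPT 1, a choice made after the values were seen, the median log2 fold change was 0.51 and the range 0.06 (Atf4) to 0.93 (Asns, SE 0.34, edgeR adjusted p = 0.854). All 10 values were still above 0 in that fit, beside a median of 0.001 over all genes. Then 0 of 10 passed, where 0.0927% of all genes passed as higher and 0.0464% as lower. Without IPT 1 alone the median was 1.85 and the highest value 4.47. In that fit 8 of 10, and 472 of all 10668 genes tested, had an unadjusted p under 0.05, but 0 of 10 passed the adjusted threshold. It keeps the chosen high libraries KHT 1 and KHT 2 and drops the one in IPT. Nothing is therefore read from the excess in KHT in that fit. The cause of the smaller excess that remained without KHT 1, KHT 2 and IPT 1 was not tested. Without KHT 1 the median was 0.40, and without KHT 2 it was 0.43.

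KHT with NEG asks what the pull-down held above its controls. Mthfd2, Psat1 and Slc7a11 were higher in KHT, with log2 fold changes of 2.65 (SE 0.79, edgeR adjusted p = 0.0175), 2.27 (SE 0.74, adjusted p = 0.0259) and 1.76 (SE 0.65, adjusted p = 0.0426). Thus 3 of 10 genes passed as higher and 0 as lower, where 31.0% of all genes tested passed as higher and 2.72% as lower. The share among the 10 genes was therefore near that of all genes. The median log2 fold change over the 10 was 2.58, beside 1.73 over all genes, and both medians include fitted values for genes with 0 counts in NEG. KHT 1 and KHT 2, for whose high values the 10 genes were chosen, enter the first median, so nothing is read from its excess. Without KHT 1, KHT 2 and IPT 1 the median was 1.11 over the 10 and 1.72 over all genes. All 3 calls were lost without NEG 1, where the edgeR adjusted p was 0.0670 for Mthfd2, 0.0611 for Psat1 and 0.115 for Slc7a11. Mthfd2 passed in 22 of 23 alternatives and Psat1 in 18, which was also lost without NEG 3 (adjusted p = 0.0509), without NEG 4 (0.0648), with the 2 groups alone (0.0687) and without KHT 1, KHT 2 and IPT 1 (0.0718). Slc7a11 passed in 11 of 23. It was also lost without NEG 3 or NEG 4 (adjusted p = 0.0790 and 0.100), without KHT 1 or KHT 2 (0.0730 and 0.0810), without IPT 2, IPT 3 or IPT 4 (0.0569 to 0.0597) and without KHT 1, KHT 2 and IPT 1 together (0.118). The same held with limma voom (adjusted p = 0.0562), with a filter at a mean of 10 CPM (0.0652) and with the 2 groups alone (0.137).

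The other 7 genes did not pass in the comparison of KHT with NEG. Atf4 had a log2 fold change of 0.60 (SE 0.66, edgeR adjusted p = 0.463), with NEG 3 and NEG 5 above KHT 3 and KHT 4. Ddit3 had 2.74 (SE 1.57, adjusted p = 0.177), Sesn2 2.51 (SE 1.64, adjusted p = 0.230) and Asns 1.77 (SE 1.28, adjusted p = 0.272). The value for Aldh1l2, 3.03 (SE 2.85, adjusted p = 0.400), changed sign to -0.67 (adjusted p = 0.596) without KHT 1, KHT 2 and IPT 1. Trib3 held 1050 counts over KHT and 0 over NEG, which makes it at least 11.2-fold higher when a floor of 3 counts is set over the NEG group, and at least 1.52-fold without KHT 1 and KHT 2. The exact binomial 95% interval of the same counts of Trib3 began lower than that floor gives, at 9.09-fold. For Trib3 the edgeR adjusted p was 0.295 with all libraries and 0.0464 without KHT 1, KHT 2 and IPT 1. Without those 3 libraries 2 of 10 genes, Trib3 and Mthfd2, passed as higher, where 21.7% of all genes did. Chac1 had a log2 fold change of 3.06 (SE 3.33, edgeR adjusted p = 0.465), and of 0.80 (adjusted p = 0.682) without KHT 1, KHT 2 and IPT 1. It held 253 counts over KHT, with 136 in KHT 1 and 91 in KHT 2, against 1 over NEG. The ratio was 8.09 with a 95% counting interval of 1.44 to 321 (exact binomial), which covers counting error only and takes counts as independent. Both counting intervals include KHT 1 and KHT 2, for whose high values the genes were chosen, so nothing is read from them.

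**Figure D5:**
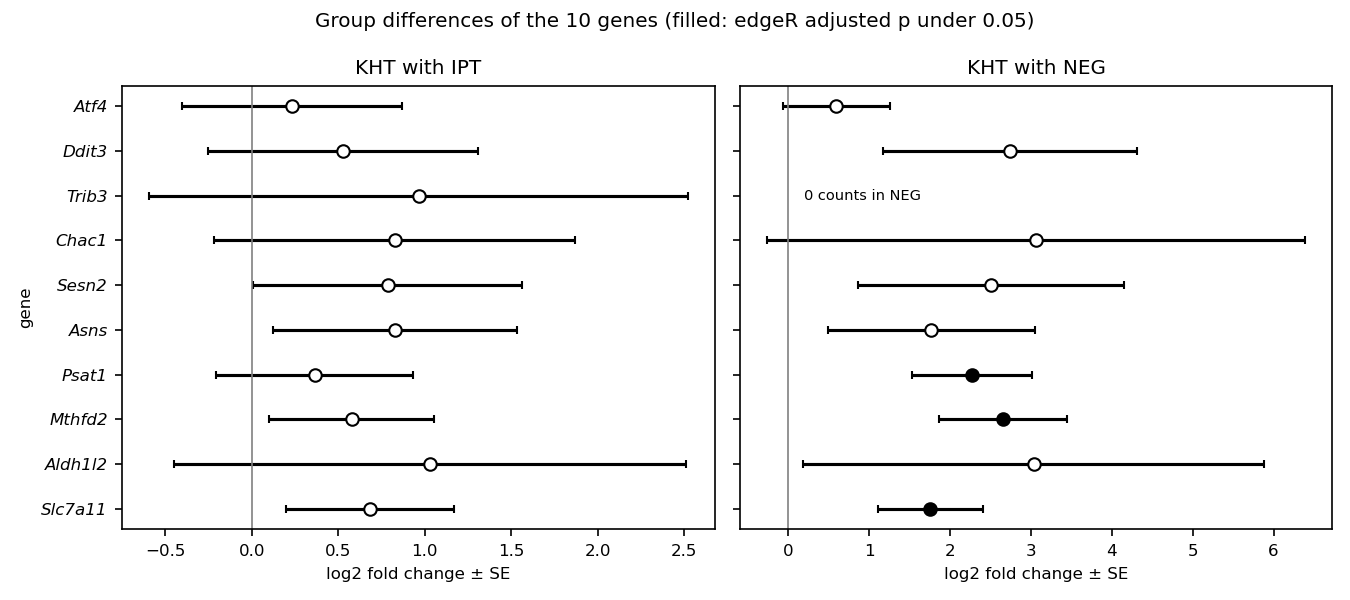
Log2 fold change with its standard error (x axis) of each of the 10 genes (y axis) in KHT with IPT (left) and KHT with NEG (right), where filled points passed an edgeR adjusted p of 0.05. No point is filled on the left, where all lie between 0.23 and 1.03, and Mthfd2, Psat1 and Slc7a11 are filled on the right, where Trib3 has no point because NEG held 0 counts.

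The size of the KHT with NEG values depends on scaling, because the dominant features fill the NEG libraries. Scaled by total counts alone, all 10 genes passed, where 97.3% of all genes passed as higher, at log2 fold changes of at least 4.57 (Atf4), and the median over all genes moved from 1.73 to 5.66. Against that median of 5.66, Mthfd2 stood at 6.65, Psat1 at 6.21, Slc7a11 at 5.72 and Atf4 below it. In summed counts over NEG the genes ranged from 0 for Trib3 to 76 for Atf4, with Slc7a11 at 14, Psat1 at 12, Asns at 7 and Mthfd2 at 6. NEG 3 held counts of 9 of the 10 genes, NEG 5 of 6, NEG 1 of 2 and NEG 4 of 1.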

How the data were processed

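RNA of 13 libraries (4 KHT, 5 NEG, 4 IPT) was deposited as 1 table of estimated counts per gene, whole numbers for 27071 features, with no further normalisation in the deposited values. The submitters' processing notes name kallisto and DESeq2 with GRCm38 and mm10, without versions or roles, and the sources used here do not tell how transcripts were summed to genes. Values of 2 (24545) outnumber values of 1 (9352), so both mates of a pair may have been counted; halved values were 1 of the alternatives. NEG 2 holds 0 counts and was left out.

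Groups come from the titles. All 12 libraries entered 1 fit of 3 groups with edgeR 4.0.16 in R 4.3.3 (TMM scaling, filterByExpr, robust quasi-likelihood fit, Benjamini-Hochberg, threshold 0.05), checked on simulated data. DESeq2 1.42.0, limma 3.58.1 (voom), other scalings and filters, and leaving out each library were alternatives. Per-library levels are CPM of the TMM-scaled library size. The genes and lists were chosen with earlier results of these data known. From each list the 3 genes with the highest mean CPM over KHT and IPT could be named, since 0 list genes passed in KHT with IPT; the 12 genes nearest in pattern (prior count 2) were named too. Symbols come from the table and gene positions from RefSeq (GRCm38.p6).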

Additional observations from a re-analysis of the deposited data

Results flagged for a closer look

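In 11 sets of 4 libraries (1 gene in KHT, IPT or NEG, 29 sets in all), 1 library's gap to its nearest neighbour took up more of the range than Dixon's 95% limit for 4 values. About 1 set in 20 would pass by chance among unselected, independent values. That rate cannot be set against these sets, because the genes were chosen for high values in KHT 1, KHT 2 and IPT 1 and share their libraries, so the values are listed as a description with no test. In IPT, library 1, one of the libraries the choice rests on, was the distant one for 7 of the genes. There Trib3 read 77.3 CPM where the other 3 read 1.55 to 5.66, Aldh1l2 read 75.9 against 0.986 to 3.43, and Chac1 19.1 against 0.836 to 2.68. Ddit3 read 64.0 against 8.17 to 10.6, Asns 44.7 against 6.48 to 9.08, Atf4 182 against 95.2 to 102, and Sesn2 43.7 against 5.50 to 10.6.

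In NEG, library 3 was the distant one for 4 genes. Aldh1l2 read 24.1 CPM from 4 counts, Sesn2 24.1 from 4 counts and Chac1 6.03 from 1 count, where the other 3 NEG libraries were at 0. With 3 libraries at 0 any count in the remaining one passes the limit by construction, so nothing is read from these. Asns read 36.2 CPM from 6 counts there, against 0 to 4.09 in the others.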

How the results depend on the processing

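In KHT with IPT, 1 gene of 10714 was higher and 0 lower. The count of higher genes was 0 with total counts, with a filter at a mean of 10 CPM and with halved values, 4 with DESeq2, 43 with no filter and 10 without KHT 1, KHT 2 and IPT 1. That of lower genes was 13 with no filter, 3 with DESeq2, 8 with limma voom, 1 with halved values, 1 with the 2 groups alone and 5 without those 3 libraries. Leaving out 1 library gave 0 to 2 higher and 0 to 2 lower. In KHT with NEG, 3324 genes were higher and 291 lower. Higher genes numbered 10426 with total counts, 5042 with the replicate block and 2102 with the 2 groups alone. Lower genes numbered 14 with total counts and 791 with no filter. Leaving out 1 library gave 1720 to 5421 higher (without NEG 1 and NEG 5) and 174 to 454 lower (without NEG 3 and NEG 5). Deviations from the group means correlated at 0.14, -0.44, 0.24 and 0.13 between same-numbered KHT and IPT libraries. With 4 libraries a group these values cannot decide whether the numbers pair them, and the labels do not say which input each pull-down used. Under the block 0 of the 10 genes passed in KHT with IPT and 3 in KHT with NEG. None of the 10 genes passed in KHT with IPT under any alternative run. In KHT with NEG, 10 passed with total counts, 5 with no filter or the 2 groups alone, 4 with DESeq2, 2 with limma voom, and 0 (without NEG 1) to 3 with 1 library left out. Of all genes, 10426 of 10714 were higher with total counts, 3815 of 27071 with no filter and 2102 of 8485 with the 2 groups alone. With DESeq2 it was 3406 of 9445, with limma voom 3519 of 10714 and without NEG 1 1720 of 11462. Aldh1l2 there went to -0.67 without KHT 1, KHT 2 and IPT 1. The cause of these differences was not tested. Of the 12 genes nearest in pattern, 5 to 9 remained among the nearest 12 over the alternatives. Depth limits every NEG level, where 1 count is worth several CPM.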

Other observations

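Some genes outside the Atf4 response were ordered the opposite way, low in KHT 1, KHT 2 and IPT 1. They were named after their values were seen and carry no test. Srxn1, a sulfiredoxin and Nrf2 target that reactivates oxidised peroxiredoxins, read 6.30, 5.94, 50.6 and 48.7 CPM in KHT 1 to KHT 4 and 8.84, 20.01, 57.0 and 26.2 in IPT 1 to IPT 4. Hmox1, the haem-degrading oxygenase and another Nrf2 target, read 32.3, 31.0, 101 and 102 in KHT and 30.8, 64.7, 106 and 39.2 in IPT. In both, KHT 3, KHT 4 and IPT 3 were the highest and IPT 2 and IPT 4 lay between. Btg2, an antiproliferative p53 target, read 3.02, 6.39, 21.5 and 26.3 in KHT and 2.77, 18.7, 24.0 and 34.6 in IPT. Fdx1, the ferredoxin that passes electrons to Cyp11a1, read 29.4, 24.4, 84.1 and 79.2 in KHT and 28.1, 75.4, 83.0 and 109 in IPT. For Btg2 and Fdx1 the 5 other libraries stood together above KHT 1, KHT 2 and IPT 1 with no overlap.

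Cth, the enzyme that releases cysteine from cystathionine, was among the amino acid enzymes with the widest gap. It read 49.9, 51.1, 6.66 and 5.22 CPM in KHT 1 to KHT 4 and 49.4, 4.51, 5.96 and 7.21 in IPT 1 to IPT 4, so that KHT 1, KHT 2 and IPT 1 lay within a narrow range well above the rest. Soat2, which esterifies cholesterol, read 22.1, 25.8, 2.48 and 3.48 in KHT and 25.0, 0.564, 2.23 and 0.732 in IPT, again with the same 3 libraries high.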
